A study of Mus musculus with 18 samples.

Results

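Interferon-stimulated genes are the genes that cells switch on when interferons bind their receptors, and most of them act against viruses or intracellular microbes. A list of 40 such mouse genes, chosen by gene name, was followed here. All 40 were found among the 24614 genes of the tables, by summing each gene's transcripts, and all 40 were among the 13381 genes with enough counts to be tested.

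The study profiled RNA from conventional dendritic cells (cDC), the antigen-presenting cells that prime T cells, taken from spleens of C57BL/6 mice that were ADAM10-deficient (KO) or wild type (WT). ADAM10 is a membrane-bound metalloprotease that sheds surface proteins and starts the activation of Notch receptors. Living CD11c+MHCII+ cells were sorted into CD4+ cells and CD8-CD4- cells (written CD4- below), both cDC2, and CD8+ cells, which are cDC1, and poly(A) RNA was sequenced. The 6 groups are KO CD4+, WT CD4+, KO CD4-, WT CD4-, KO CD8+ and WT CD8+, with 3 libraries each and 18 in all. All groups share the strain and the spleen as source. The labels name no treatment, no age, no deletion strategy and no cell type that drives the deletion, and they do not say whether a library is 1 mouse or a pool. Libraries of a group are therefore taken as replicates as labelled, and p-values measure the spread between them, which may be technical.

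Library totals were 12358884 to 19557469 estimated counts, and library values below are counts scaled to the library's total (CPM). Adam10 itself was lower in the KO libraries without overlap in all 3 populations, by 1.18 (CD4+), 1.25 (CD4-) and 1.15 (CD8+) on the log2 scale, and fell to 28.7 to 47.4 CPM in KO libraries, against 57 to 138 CPM in WT libraries. The 7 cDC1 markers summed to 3030 to 3410 CPM in KO CD8+ and 2870 to 3450 CPM in WT CD8+ libraries, and to at most 504 CPM elsewhere. Among them Cd8a was at 521 to 667 CPM in KO CD8+ and 1010 to 1140 CPM in WT CD8+ libraries. Xcr1, Clec9a, Cadm1 and Tlr3 lay higher in KO CD8+ libraries without overlap, and Itgae and Batf3 overlapped. The 7 cDC2 markers summed to 2390 to 2660 CPM in KO CD4+, 1890 to 1970 CPM in WT CD4+, 1570 to 1750 CPM in KO CD4- and 939 to 1150 CPM in WT CD4- libraries, and to at most 195 CPM in CD8+ libraries. Single cDC2 markers differed by genotype: Esam was at 1.38 to 4.1 CPM in KO CD4+ and 73.5 to 79.5 CPM in WT CD4+ libraries, Clec4a4 at 18.2 to 24.2 CPM in KO CD4+ and 121 to 131 CPM in WT CD4+ libraries, and Clec10a at 522 to 708 CPM in KO CD4+ and 12.9 to 22.1 CPM in WT CD4+ libraries. The 7 NK cell markers summed to 23.1 to 65.2 CPM in KO CD4- libraries, against 213 to 566 CPM in WT CD4- libraries, and the 8 T cell markers to 13 to 45.4 CPM against 131 to 249 CPM. Ncr1, the NK cell receptor, was at 2.91 to 15.7 CPM in KO CD4- and 33.7 to 78.6 CPM in WT CD4- libraries. All 8 red pulp macrophage markers summed to 880 to 978 CPM in KO CD4+ and 577 to 651 CPM in WT CD4+ libraries, with C1qa at 145 to 162 CPM in KO CD4+ and 34.7 to 43 CPM in WT CD4+ libraries. Hmox1, another of them, was at 141 to 167 CPM in KO CD4+ and 21.9 to 36.9 CPM in WT CD4+ libraries. C1qa and Hmox1 are only part of this list, and the direction of its other markers is not given here. A higher sum therefore does not mean that each of the 8 markers lay higher in KO CD4+ libraries. The 6 erythroid markers summed to 72.1 to 249 CPM in KO CD4+ and 18.2 to 46.6 CPM in WT CD4+ libraries, and to 155 to 301 CPM in KO CD8+ and 63 to 80.7 CPM in WT CD8+ libraries. The 7 monocyte markers summed to 2410 to 3210 CPM in KO CD4+ and 1950 to 2790 CPM in WT CD4+ libraries, which overlap. Ccr2, one of them, was at 779 to 1100 CPM in KO CD4+ and 70.5 to 81.3 CPM in WT CD4+ libraries. Ly6c2, Csf1r, Fcgr1 and Cd14 also lay higher in KO CD4+ without overlap. Treml4 lay lower, at 7.79 to 10.6 CPM in KO CD4+ and 50.3 to 54.5 CPM in WT CD4+ libraries. So did Nr4a1, at 680 to 1370 CPM in KO CD4+ and 1420 to 2180 CPM in WT CD4+ libraries. The part of other cell types in the differences below was not tested.

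Type I interferons act through the receptor IFNAR and the kinases JAK1 and TYK2, whose signal brings STAT2 and IRF9 to the interferon-stimulated response element (ISRE) of target promoters. Interferon-gamma acts at the gamma-activated site (GAS) and raises IRF1 and the interferon-inducible GTPases. Dendritic cells of unchallenged mice keep a low standing level of many of these transcripts.

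The promoters show which members carry these elements. RefSeq promoter windows of build GRCm38.p6, running from 250 bases before to 50 bases after the annotated start, were matched by symbol for 30 of the 40 members. Usp18, Rtp4, Zbp1, Ly6e, Ifi27l2a, Mx1, Parp14, Mx2, Oas2 and Dhx58 had no entry. The ISRE core was searched as GAAANNGAAA and the GAS core as TTCNNNGAA, on both strands and with overlaps allowed. An ISRE core was present for 18 of the 30 members (60%), against 3.99% of the 27025 genes of the table. A GAS core was present for 8 of the 30 (26.7%), against 9.55% of the genes. Below are the 250 bases before the start, 5′ to 3′ on the gene's strand, for members that the results turn on. Capitals mark matches to the ISRE core on either strand, and neighbouring matches overlap into longer runs in Isg15, Bst2, Irgm1 and Gbp3. Isg15 and Ifit3 are shown because they fell in KO CD4+ cells, Bst2 because its direction differed between populations, Oas3 because it rose in KO CD8+ cells, Gbp3 and Irgm1 as GTPases, and Ifi44 because it rose in all 3 populations with no match in this window.
Isg15 (chr4:156200819-156201068, minus strand): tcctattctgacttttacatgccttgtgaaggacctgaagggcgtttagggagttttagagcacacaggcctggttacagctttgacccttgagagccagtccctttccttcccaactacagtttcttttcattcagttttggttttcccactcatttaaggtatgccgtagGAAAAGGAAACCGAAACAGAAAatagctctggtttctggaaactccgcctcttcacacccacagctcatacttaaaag
Ifit3 (chr19:34583279-34583528, plus strand): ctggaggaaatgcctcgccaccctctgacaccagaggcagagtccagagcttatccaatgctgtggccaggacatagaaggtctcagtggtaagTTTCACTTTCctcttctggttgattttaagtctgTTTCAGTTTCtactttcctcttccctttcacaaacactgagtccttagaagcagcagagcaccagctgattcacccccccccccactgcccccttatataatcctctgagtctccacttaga
Bst2 (chr8:71537473-71537722, minus strand): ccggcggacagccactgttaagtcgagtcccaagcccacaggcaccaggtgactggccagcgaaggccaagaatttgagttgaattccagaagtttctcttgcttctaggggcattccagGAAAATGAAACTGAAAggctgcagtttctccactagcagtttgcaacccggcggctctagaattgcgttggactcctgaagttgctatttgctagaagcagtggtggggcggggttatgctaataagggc
Oas3 (chr5:120777660-120777909, minus strand): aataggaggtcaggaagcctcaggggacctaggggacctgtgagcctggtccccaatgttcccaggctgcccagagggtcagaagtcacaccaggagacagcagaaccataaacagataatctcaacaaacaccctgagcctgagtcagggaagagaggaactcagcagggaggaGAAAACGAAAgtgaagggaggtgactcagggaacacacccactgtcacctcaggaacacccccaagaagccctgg
Gbp3 (chr3:142559794-142560043, plus strand): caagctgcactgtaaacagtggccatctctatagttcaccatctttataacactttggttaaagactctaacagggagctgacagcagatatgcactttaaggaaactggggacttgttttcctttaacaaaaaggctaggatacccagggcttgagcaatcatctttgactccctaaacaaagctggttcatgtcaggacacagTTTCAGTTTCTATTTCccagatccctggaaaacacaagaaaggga
Irgm1 (chr11:48871421-48871670, minus strand): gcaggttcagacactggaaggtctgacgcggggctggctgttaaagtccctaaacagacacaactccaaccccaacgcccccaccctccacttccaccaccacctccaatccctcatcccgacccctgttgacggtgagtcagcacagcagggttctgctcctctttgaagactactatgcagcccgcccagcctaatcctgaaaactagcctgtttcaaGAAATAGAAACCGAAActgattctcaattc
Ifi44 (chr3:151749911-151750160, minus strand): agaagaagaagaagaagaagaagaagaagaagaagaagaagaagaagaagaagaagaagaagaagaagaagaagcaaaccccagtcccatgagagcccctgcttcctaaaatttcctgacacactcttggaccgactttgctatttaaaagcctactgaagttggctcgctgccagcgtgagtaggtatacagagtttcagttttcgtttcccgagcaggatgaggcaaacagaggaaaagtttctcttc

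Counted from its first base, the match nearest to the start lay 66 bases before it in Isg15, 122 in Ifit3, 124 in Bst2, 75 in Oas3, 39 in Gbp3 and 24 in Irgm1. In the whole 300-base window Isg15 held 3 overlapping matches, and Ifit3, Bst2, Gbp3 and Irgm1 held 2 each. Bst2 also held a GAS core 136 bases before the start, which overlaps the first ISRE match. A match is a run of letters and not a measured binding site.

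The members spanned a wide range of levels. In TPM, the scale that corrects for transcript length, Ly6e was the highest member in every group, at 1130 ± 115 in KO CD8+ and 1190 ± 40.4 in WT CD8+ cells (SD, n = 3 each). Ly6e encodes a membrane-anchored protein that restricts some viruses. Bst2, Irf7 and Sp100 were among the 5 highest members in every group as well, and Oas2 and Mx2 were among the 5 lowest. Oas2 was at 0.0223 TPM in KO CD8+ and 0.0241 TPM in WT CD8+ cells.

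**Figure D1:**
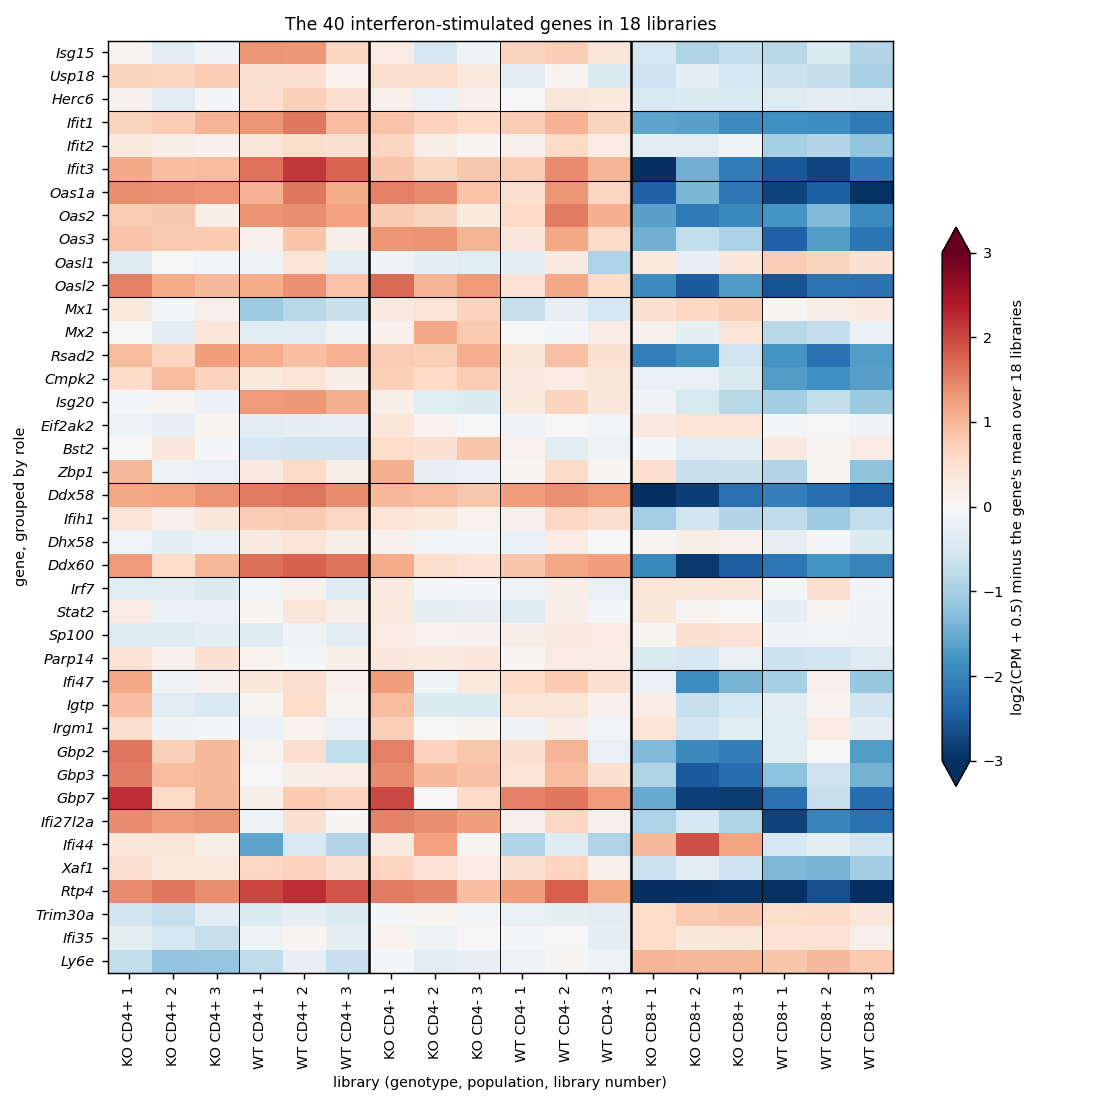
Each row is a member, grouped by role, and each column a library. Colour gives log2(CPM + 0.5) minus the gene's mean over the 18 libraries, and a black line separates the populations. Ifit1, Ifit3, Oas1a, Oas2, Oas3, Oasl2, Ddx58, Ddx60 and Rtp4 are above their mean in the CD4+ and CD4- libraries and below it in the CD8+ libraries, while Ly6e, Trim30a and Ifi35 are higher in every CD8+ library than in any other library.

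In wild-type mice the cDC2 populations held more of most members than the cDC1 population. Tests throughout are edgeR's quasi-likelihood F test with Benjamini-Hochberg adjustment over all 13381 genes, and a gene is called at an adjusted p under 0.05. Between WT CD4+ and WT CD8+ cells, 23 members were higher in CD4+ and 5 lower, where 22.6% of all tested genes were called higher and 23% lower. Between WT CD4- and WT CD8+ cells, 24 were higher in CD4- and 5 lower, where 21.9% and 21% of genes were called. The median difference of the 40 members was 1.05 and 1.11 on the log2 scale, and that of all genes was 0 in both comparisons. Of these calls 25 of 28 and 25 of 29 were kept under all 21 alternative settings.

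Rtp4, a chaperone for receptor transport, showed the largest of these differences. It had 36.6, 42.6 and 33.6 CPM in WT CD4+ libraries, 21.6, 31.4 and 20.3 CPM in WT CD4- libraries and 0.689, 1 and 0.453 CPM in WT CD8+ libraries. The difference was 5.7 ± 0.31 (log2, SE) for CD4+ minus CD8+ and 5.07 ± 0.32 for CD4- minus CD8+. Ifit3, whose protein holds viral RNA together with IFIT1, had 30.8, 43.4 and 33.8 CPM in WT CD4+ libraries, 16.7, 26.5 and 20.2 CPM in WT CD4- libraries and 1.24, 1 and 1.81 CPM in WT CD8+ libraries. In neither gene did a cDC2 library come near a cDC1 library.

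Oas2, Ddx60, Oas1a, Ddx58, Oasl2, Ifit1 and Rsad2 were higher in WT CD4+ than in WT CD8+ cells by 4.62, 4.23, 4.11, 3.93, 3.71, 3.67 and 3.06 (log2), and in WT CD4- than in WT CD8+ cells by 4.4, 3.63, 3.71, 3.71, 3.31, 3.16 and 2.61. They encode 2'-5'-oligoadenylate synthetases and a relative (Oas2, Oas1a, Oasl2), the RNA helicases DDX60 and RIG-I (Ddx58), an IFIT protein and viperin (Rsad2). The members lower in cDC2 were Ly6e (-1.41 in CD4+ and -0.95 in CD4-), Mx1 (-1.07 and -0.67), Trim30a (-0.86 and -0.77) and Ifi35 (-0.47 and -0.44). Bst2 was lower in CD4+ (-0.75) and not called in CD4- (-0.3, adjusted p = 0.07), and Oasl1 was lower in CD4- (-0.98) and not called in CD4+ (-0.66, adjusted p = 0.0645). Irf7, the transcription factor that amplifies type I interferon responses, was not called between populations: it had 72.9, 85.6 and 59.1 CPM in WT CD4+, 71.8, 88.2 and 66 CPM in WT CD4- and 74.7, 108 and 73.4 CPM in WT CD8+ libraries, and these ranges overlap. Its differences from WT CD8+ were -0.23 in CD4+ and -0.18 in CD4- (adjusted p = 0.236 and 0.373), and with a replicate block within genotype, added after the data were seen, the CD4+ one was called (-0.23, adjusted p = 0.0286). In bulk RNA, fewer cells that express a gene and less RNA per cell cannot be told apart.

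**Figure D2:**
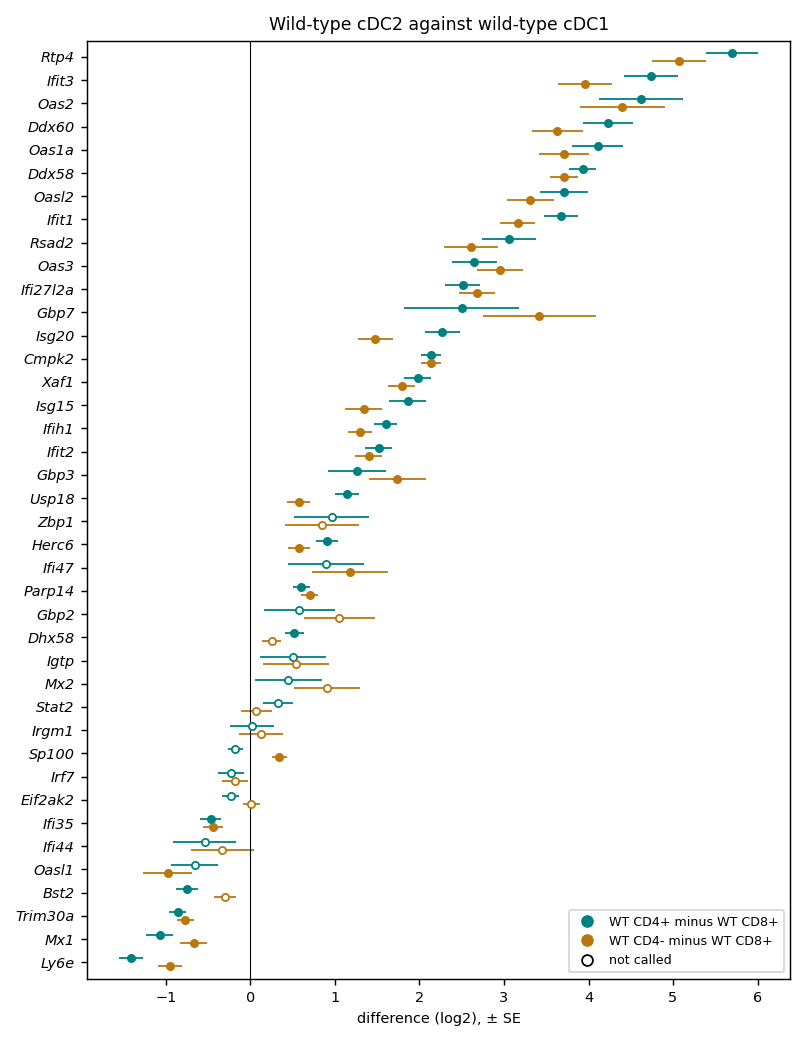
Points are log2 differences with SE between wild-type cDC2 and wild-type cDC1, teal for CD4+ minus CD8+ and orange for CD4- minus CD8+, and open points were not called. Most members lie right of 0, led by Rtp4 at 5.7 and 5.07, and Ly6e, Mx1, Trim30a and Ifi35 lie left of it in both.

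Between the cDC2 populations the members differed less. In WT CD4+ minus WT CD4-, 4 members were higher (Isg20 0.8, Ifit3 0.77, Usp18 0.58 and Ifit1 0.51) and 3 lower (Sp100 -0.52, Ly6e -0.46 and Bst2 -0.45), where 7.12% of all genes were called higher and 9.63% lower. Only Sp100 kept its call in all 21 alternative settings, and the 7 calls became 4 without WT CD4+ library 1, without WT CD4+ library 2 or without WT CD4- library 1, and 1 without all libraries numbered 1.

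In ADAM10-deficient cells members were called in both directions, and Bst2 and Dhx58 were the 2 called in opposite directions in different populations. In CD4+ cells 8 members rose and 11 fell, where 18.5% of all genes rose and 16.6% fell. In CD4- cells 6 rose and 3 fell, where 14.6% rose and 11.3% fell. In CD8+ cells 9 rose and 1 fell, where 7.01% rose and 8.68% fell. As shares of the 40 members these are 20% and 27.5% (CD4+), 15% and 7.5% (CD4-), and 22.5% and 2.5% (CD8+). The median KO minus WT difference of the members was -0.09, 0.05 and 0.25 (log2) in the same order, and that of all genes 0.02, 0.02 and 0. Of the 40 members 4 were called in all 3 populations, 4 in 2, 18 in 1 and 14 in none (10%, 10%, 45% and 35%), where 7.02%, 16.5%, 22.7% and 53.8% of all tested genes were.

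The counts rest on calls near the threshold in part. Of the 19 calls in CD4+ cells 6 held in all 20 alternative settings (Bst2, Dhx58, Herc6, Ifi27l2a, Isg15 and Isg20), of the 9 in CD4- cells 3 (Bst2, Ifi27l2a and Mx1), and of the 10 in CD8+ cells 3 (Cmpk2, Ifi27l2a and Ifi44). In CD4+ cells the count fell to 12 without WT library 1 and to 12 without WT library 2.

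**Figure D3:**
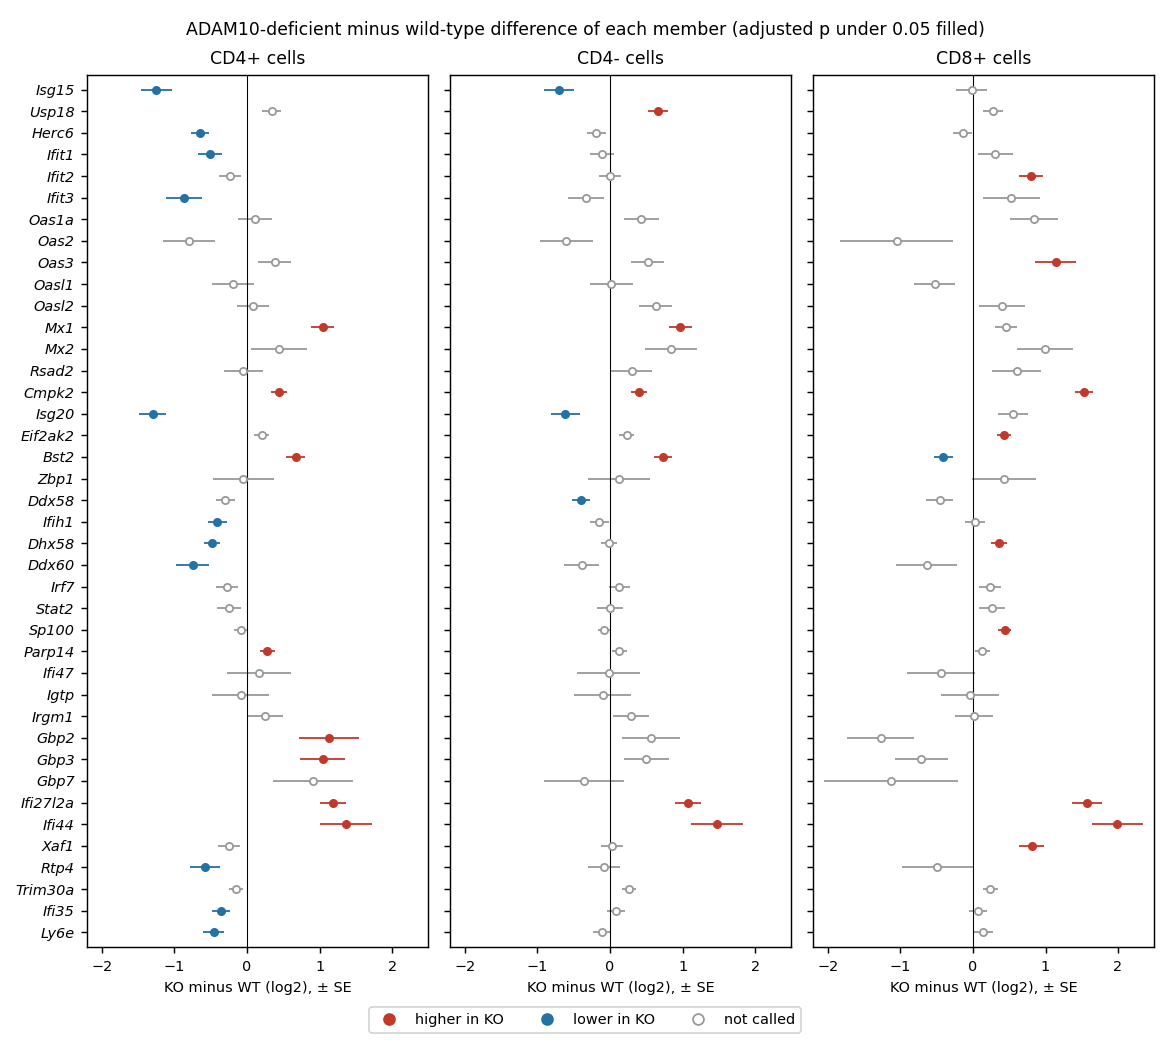
Points are the KO minus WT log2 difference of each member with its SE, in CD4+, CD4- and CD8+ cells from left to right. Red points were called higher in KO, blue points lower, and open points were not called. The called falls lie mainly in the CD4+ panel, with 11 there, 3 in the CD4- panel and 1 in the CD8+ panel.

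Of the 3 genes of the ISG15 pathway, Isg15 and Herc6 fell in KO CD4+ cells, and in KO CD4- cells Isg15 fell and Usp18 rose. Isg15 encodes a ubiquitin-like protein that is joined to other proteins, Herc6 the mouse ligase for it, and Usp18 the protease that removes it and also restrains the interferon receptor. Isg15 had 18.4, 13.5 and 16 CPM in KO CD4+ libraries, against 43.6, 43 and 27.1 CPM in WT CD4+ libraries, a difference of -1.25 ± 0.21 (log2, SE; adjusted p = 0.000167). It had 20.5, 12 and 15.9 CPM in KO CD4- libraries, against 27.6, 29 and 22.4 CPM in WT CD4- libraries, a difference of -0.7 ± 0.21 (adjusted p = 0.0206). The groups did not overlap in either cDC2 population. In CD8+ cells the KO libraries had 11.8, 8.99 and 10.1 CPM, against 9.51, 12.6 and 9.14 CPM in WT libraries, and the groups overlapped. The CD4- call was lost without WT library 1, WT library 2, KO library 2 or KO library 3, with adjusted p of 0.0519 to 0.104.

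Herc6 had 30.2, 21.7 and 26.9 CPM in KO CD4+ libraries, against 39.5, 45.3 and 39.2 CPM in WT CD4+ libraries. It fell there by 0.65 on the log2 scale (adjusted p = 0.000577) and was not called in CD4- (-0.19) or CD8+ cells (-0.14). Usp18 moved the other way. It had 57.7, 57.9 and 49.8 CPM in KO CD4- libraries, against 31.6, 42.7 and 30.4 CPM in WT CD4- libraries, and rose by 0.66 ± 0.14 (adjusted p = 0.00159). The CD4- difference was 0.38 on the log2(TPM + 1) scale (adjusted p = 0.0651). Usp18 KO libraries lay above its WT libraries in CD4+ (0.34, adjusted p = 0.0603) and CD8+ cells (0.28, adjusted p = 0.211) as well, without a call.

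The IFIT genes, a cluster on chromosome 19 of GRCm38 (Ifit2 at chr19:34550694-34576419, Ifit3 at chr19:34583531-34588731, Ifit1 at chr19:34640871-34650009), encode proteins that bind viral RNA. Ifit3 had 21.8, 18.5 and 18.9 CPM in KO CD4+ libraries, against 30.8, 43.4 and 33.8 CPM in WT CD4+ libraries, and fell by 0.87 on the log2 scale (adjusted p = 0.011). Ifit1 had 10.2, 11 and 13.1 CPM in KO CD4+ libraries, against 16.4, 19.8 and 12.5 CPM in WT CD4+ libraries, which overlap, and fell by 0.51 (adjusted p = 0.0223). The Ifit1 call was lost without WT library 1, WT library 2, KO library 1 or KO library 2 (adjusted p of 0.0528 to 0.147), and the Ifit3 call without WT library 2 (adjusted p = 0.062). Ifit2 was not called in CD4+ cells and rose in CD8+ cells, where it had 12.3, 12.4 and 14.6 CPM in KO libraries, against 7.65, 8.3 and 6.65 CPM in WT libraries, a difference of 0.8 ± 0.16 (adjusted p = 0.00271) that was 0.37 on the log2(TPM + 1) scale (adjusted p = 0.109). Ifit3 and Ifit1 have near-identical copies. Ifit3 made up 79.9% of the summed counts of Ifit3 and Ifit3b, and Ifit1 61.9% of those of Ifit1, Ifit1bl1 and Ifit1bl2. Summed with its copies, Ifit1 was called lower in KO CD4- cells too (-0.6, adjusted p = 0.0278).

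The OAS family makes or resembles enzymes that make the second messenger for RNase L. Of its 5 members, Oas3 was the 1 that was called, and it rose in CD8+ cells. Oas3 had 5.8, 9.69 and 8.38 CPM in KO CD8+ libraries, against 2.69, 4.87 and 3.25 CPM in WT CD8+ libraries, a difference of 1.14 ± 0.28 (adjusted p = 0.0101), and the groups did not overlap. That call was lost without WT library 1 (adjusted p = 0.0619), without KO library 2 (adjusted p = 0.0505) and on the log2(TPM + 1) scale (adjusted p = 0.167). Oas1a lay higher in all 3 KO CD8+ libraries (5.54, 12 and 6.82 CPM) than in the WT CD8+ libraries (4.27, 5.51 and 3.7 CPM) without a call (0.84 ± 0.33, adjusted p = 0.0959). Oasl2 had 45.6, 28.4 and 34.2 CPM in KO CD4- libraries, against 18.8, 30.9 and 20.5 CPM in WT CD4- libraries, which overlap (0.63, adjusted p = 0.0523). Oas2, at 1.93 to 3.3 CPM in KO CD4+ and 4.47 to 5.22 CPM in WT CD4+ libraries, and Oasl1 were not called in any population.

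Among the other antiviral effectors, Cmpk2 rose in all 3 populations. Its product is a mitochondrial nucleotide kinase, and the gene lies on chromosome 12 beside Rsad2. Cmpk2 had 11.3, 11.4 and 9.74 CPM in KO CD8+ libraries, against 3.86, 3.36 and 4 CPM in WT CD8+ libraries, a difference of 1.53 ± 0.12 (adjusted p = 3.47e-07). In CD4+ cells it had 20.2, 25.7 and 21.5 CPM in KO libraries, against 16.6, 17.8 and 15.3 CPM in WT libraries (0.44, adjusted p = 0.0038). In CD4- cells it had 22.1, 20.5 and 23.1 CPM in KO libraries, against 16.3, 15.9 and 17.4 CPM in WT libraries (0.4, adjusted p = 0.0107). The groups did not overlap in any population. The cDC2 calls depended on how the transcripts were weighed: on the log2(TPM + 1) scale the difference was 0.64 in CD4+ cells (adjusted p = 0.126) and -0.16 in CD4- cells (adjusted p = 0.706). The transcript Cmpk2-203 varied most, at 4.79 ± 2.95 TPM in KO CD4- and 5.67 ± 0.621 TPM in WT CD4- cells, while Cmpk2-201 was at 2.95 ± 0.14 TPM and 2.78 ± 0.313 TPM (SD, n = 3 each). Rsad2 itself was not called in any population.

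Isg20, an RNA exonuclease, fell in both cDC2 populations. It had 9.84, 10.6 and 8.81 CPM in KO CD4+ libraries, against 25.1, 25.7 and 21.5 CPM in WT CD4+ libraries, a difference of -1.3 ± 0.19 (adjusted p = 5.41e-05). In CD4- cells it had 11.6, 7.75 and 7.51 CPM in KO libraries, against 12.5, 16.4 and 12.8 CPM in WT libraries (-0.62, adjusted p = 0.0275). In CD8+ cells it lay higher in KO, at 9.39, 7.11 and 5.46 CPM against 4.62, 5.94 and 4.38 CPM in WT libraries, without a call (0.55, adjusted p = 0.0924). The CD4- call was lost without WT library 2, KO library 2 or KO library 3 (adjusted p of 0.107 to 0.118).

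Mx1 encodes a dynamin-like GTPase that blocks influenza viruses in mouse strains with an intact gene. It had 14.6, 11.4 and 13.3 CPM in KO CD4+ libraries, against 5.32, 6.49 and 7.34 CPM in WT CD4+ libraries, and rose by 1.04 ± 0.16 (adjusted p = 7.11e-05). It rose by 0.97 in CD4- cells, to 14.4, 15.9 and 19.4 CPM in KO libraries, against 7.13, 10 and 8.16 CPM in WT libraries. In CD8+ cells the KO libraries (16.6, 18.6 and 19.7 CPM) also lay above the WT libraries (12.1, 13.7 and 14.4 CPM), without a call (0.45, adjusted p = 0.0592). In CD4+ cells the call was lost on the log2(TPM + 1) scale (0.37, adjusted p = 0.365), where the transcript Mx1-208 was at 1.43 ± 1.69 TPM in KO and 1.2 ± 0.0598 TPM in WT cells. Mx2 was at 0.551 to 3.61 CPM over all libraries and was not called.

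Bst2 (chr8:71534255-71537456, GRCm38, minus strand) encodes tetherin, which holds budding viruses on the cell surface and is also used to mark plasmacytoid dendritic cells in mice. It rose in KO cDC2 and fell in KO cDC1. It had 117, 149 and 116 CPM in KO CD4+ libraries, against 83.8, 78.5 and 78.7 CPM in WT CD4+ libraries (0.67, adjusted p = 0.000593). In CD4- cells it had 174, 163 and 209 CPM in KO libraries, against 128, 94.2 and 106 CPM in WT libraries (0.73, adjusted p = 0.000436). In CD8+ cells it had 114, 95.5 and 95.4 CPM in KO libraries, against 142, 121 and 141 CPM in WT libraries (-0.41, adjusted p = 0.0394). The groups did not overlap in any population. The CD8+ call was lost without WT library 1, WT library 3, KO library 2 or KO library 3 (adjusted p of 0.108 to 0.132).

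The summed level of 9 plasmacytoid dendritic cell markers differed in the same direction as Bst2, and Spib was the highest of them in every cDC2 library. All 9 were found, and they summed to 541 to 710 CPM in KO CD4+ and 333 to 368 CPM in WT CD4+ libraries, to 529 to 646 CPM in KO CD4- and 314 to 367 CPM in WT CD4- libraries, and to 141 to 222 CPM in KO CD8+ and 283 to 422 CPM in WT CD8+ libraries. Of these markers Spib, a transcription factor, was at 329 to 388 CPM in KO CD4+ and 139 to 155 CPM in WT CD4+ libraries, and at 296 to 353 CPM in KO CD4- and 142 to 155 CPM in WT CD4- libraries. Much of the difference of the sum in cDC2 thus lay in Spib alone. In CD4- cells Siglech (17.8 to 25.2 CPM in KO, 17.8 to 27.2 CPM in WT) and Ly6d (5.75 to 6.35 CPM in KO, 6.29 to 8.4 CPM in WT) overlapped. Ccr9, Ly6d, Klk1, Pacsin1 and Runx2 overlapped between the genotypes in CD4+ cells, and Cox6a2 was higher in KO CD8+ (4.18 to 8.61 CPM) than in WT CD8+ libraries (1.86 to 2.95 CPM), against the direction of Bst2. Siglech, the defining surface marker, was at 29.7 to 58.8 CPM in KO CD4+ and 33.2 to 46.5 CPM in WT CD4+ libraries, which overlap, and at 14.4 to 29 CPM in KO CD8+ and 32.9 to 54.3 CPM in WT CD8+ libraries. No marker of the list was at 0 in every library of a group. The part of such cells in the Bst2 differences was not tested.

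Eif2ak2, the kinase PKR that halts translation on double-stranded RNA, was called in CD8+ cells, where it rose to 28.3, 31 and 31.2 CPM in KO libraries, against 22.3, 23.3 and 21.4 CPM in WT libraries (0.43, adjusted p = 0.00778). It was 0.2 and 0.23 higher in KO CD4+ and KO CD4- cells without a call, and its difference between populations was not called. On the log2(TPM + 1) scale the CD8+ difference was 0.08 (adjusted p = 0.73). Zbp1, a sensor of Z-form nucleic acids, was not called in any population.

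**Figure D4:**
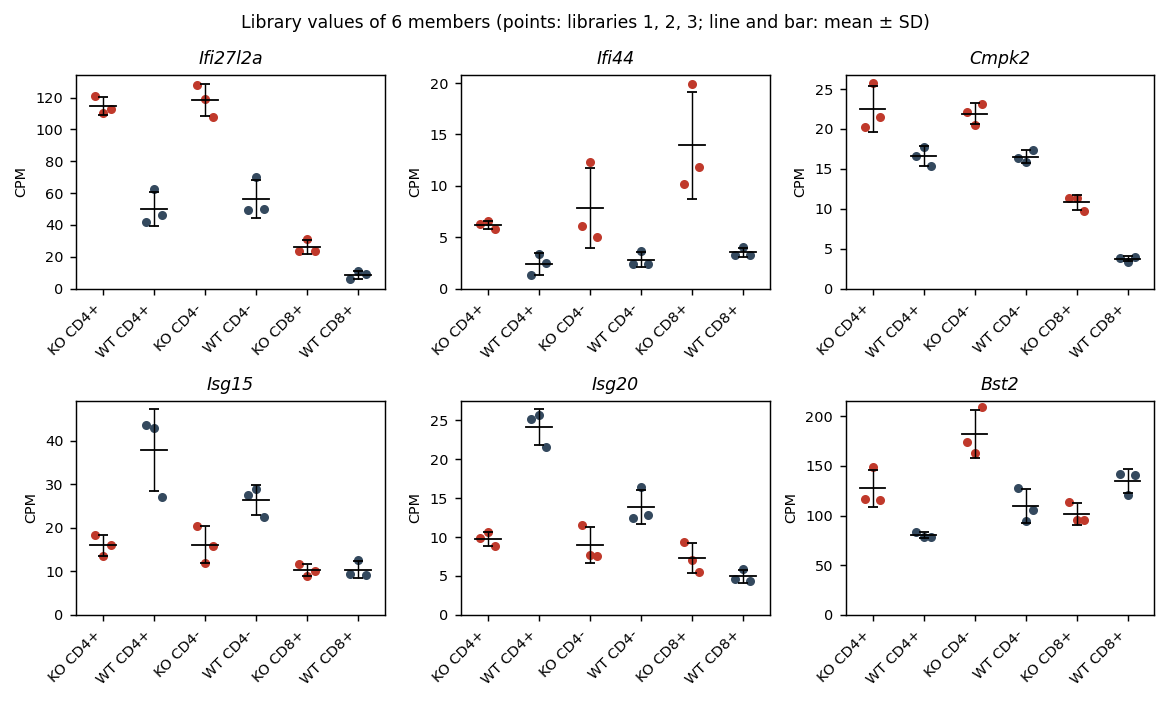
Points are CPM of the 3 libraries of each group (red KO, dark WT), and lines and bars are means ± SD, with axes from 0. Ifi27l2a, Ifi44 and Cmpk2 are higher in KO in all 3 populations. Isg15 and Isg20 are lower in KO CD4+ and KO CD4- cells, and Bst2 is higher in KO cDC2 and lower in KO CD8+ cells.

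Of the 4 RNA sensor genes, 3 fell in KO CD4+ cells, 1 fell in KO CD4- cells and 1 rose in KO CD8+ cells. Ifih1 (MDA5) and Ddx58 (RIG-I) detect viral RNA, Dhx58 (LGP2) tunes them, and Ddx60 is a helicase that acts with them. In CD4+ cells Ddx60 fell by 0.75, Dhx58 by 0.48 and Ifih1 by 0.41 on the log2 scale (adjusted p = 0.019, 0.00239 and 0.023). Dhx58 had 38.8, 33.6 and 35.8 CPM in KO CD4+ libraries, against 49.7, 53.4 and 47.4 CPM in WT CD4+ libraries. In CD8+ cells it rose by 0.36 (adjusted p = 0.033), to 43.7, 46.2 and 44.8 CPM in KO libraries, against 34.4, 39.5 and 30.8 CPM in WT libraries. The CD8+ call was lost without any of 5 of the 6 libraries (adjusted p of 0.0579 to 0.164), all but WT library 2. The calls of Ifih1 and Ddx60 in CD4+ cells were lost without WT library 2 (adjusted p = 0.0756 and 0.0623) or KO library 2 (adjusted p = 0.0995 and 0.09), and that of Ifih1 also without WT library 1 (adjusted p = 0.0551).

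Ddx58 fell in CD4- cells by 0.4 (adjusted p = 0.0315), to 41.5, 40.3 and 36.9 CPM in KO libraries, against 50.6, 54.8 and 50.8 CPM in WT libraries. Its libraries did not overlap in CD4+ cells either (47.2, 48 and 53.5 CPM in KO, against 61, 64.8 and 56.5 CPM in WT), without a call (-0.3, adjusted p = 0.0834). The CD4- difference was 0.09 with an offset for transcript length (adjusted p = 0.775), and the transcripts moved apart: Ddx58-201 was at 3.78 ± 0.131 TPM in KO CD4- and 6.43 ± 0.77 TPM in WT CD4- cells, and Ddx58-208 at 4.38 ± 0.452 TPM in KO CD4- and 2.7 ± 0.585 TPM in WT CD4- cells. The CD4- call was also lost without WT library 2 or 3 or KO library 2 or 3 (adjusted p of 0.052 to 0.115).

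Irf7 and Stat2, the transcription factors of the pathway among the members, were not called. Irf7 had 60, 61.7 and 57.5 CPM in KO CD4+ libraries, against 72.9, 85.6 and 59.1 CPM in WT CD4+ libraries, and 101, 99.8 and 98.7 CPM in KO CD8+ libraries, against 74.7, 108 and 73.4 CPM in WT CD8+ libraries, and both pairs overlap. Its differences were -0.28 in CD4+, 0.13 in CD4- and 0.23 in CD8+ cells (adjusted p = 0.173, 0.595 and 0.366). Stat2, which acts at the ISRE with IRF9, differed by -0.25, 0 and 0.26 (adjusted p = 0.296, 0.997 and 0.387). Sp100, a nuclear body protein, rose in CD8+ cells to 145, 188 and 186 CPM in KO libraries, against 127, 129 and 128 CPM in WT libraries (0.44, adjusted p = 0.00378), which became 0.26 on the log2(TPM + 1) scale (adjusted p = 0.175). Parp14, an ADP-ribosyltransferase, rose in CD4+ cells by 0.28 (adjusted p = 0.0344) with overlapping libraries, and lost that call without WT library 1 or 2 or KO library 1 or 3 (adjusted p of 0.0735 to 0.155).

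The genes most like Irf7 over the 18 libraries were Ifi35, which is a member, and Usp4, Cnp, Ap1m1 and Vwa1, with Pearson correlations of log2 CPM of 0.85, 0.85, 0.84, 0.84 and 0.83. The libraries share the sort, the strain and the group structure, so these values are descriptions.

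The interferon-inducible GTPases attack the vacuoles that hold intracellular microbes and respond strongly to interferon-gamma. Gbp2 and Gbp3 rose in KO CD4+ cells, and Ifi47, Igtp, Irgm1 and Gbp7 were not called in any population. Gbp3 had 48.9, 31.6 and 32.7 CPM in KO CD4+ libraries, against 16.6, 19.1 and 19.4 CPM in WT CD4+ libraries (1.04 ± 0.31, adjusted p = 0.0161). Gbp2 had 83.2, 44.7 and 53.2 CPM in KO CD4+ libraries, against 28.5, 38.2 and 15.9 CPM in WT CD4+ libraries (1.13 ± 0.41, adjusted p = 0.0408). The groups did not overlap in either gene. In CD8+ cells the differences were -1.27 for Gbp2 and -0.71 for Gbp3, without a call (adjusted p = 0.0738 and 0.231). Gbp2 was called lower there with DESeq2 (-1.29, adjusted p = 0.0447), with no filter (adjusted p = 0.0163) and with the replicate block (adjusted p = 0.0284), and Gbp3 without KO CD8+ library 1 (-1.48, adjusted p = 0.00518). The Gbp2 call in CD4+ cells was lost without WT library 1 or 3 or KO library 1 or 3 (adjusted p of 0.0568 to 0.173) and with DESeq2 (adjusted p = 0.0501), and the adjusted p of Gbp3 there was 0.0618 without WT library 1 and 0.0805 without KO library 1. Gbp2, Gbp3 and Gbp7 lie side by side on chromosome 3 and are alike in sequence, so reads may be split between them. Gbp3 made up 73.9% of the summed counts of Gbp3 and Gbp7, and Gbp2 63.4% of those of Gbp2 and Gbp2b. How many reads match several of these genes was not measured.

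The summed level of the 6 GTPases was highest in libraries of the same number in all 3 populations. The libraries numbered 1, 2 and 3 held 335, 171 and 189 CPM in KO CD4+, 337, 171 and 188 CPM in KO CD4-, and 134, 61.7 and 71.3 CPM in KO CD8+ cells. The WT libraries held 154, 194 and 141 CPM in CD4+, 194, 238 and 169 CPM in CD4-, and 97.1, 152 and 79.8 CPM in CD8+ cells. KO library 1 was thus the highest KO library in each population, and WT library 2 the highest WT library. Of the 40 members, 12 were highest in KO library 1 in all 3 populations (30%, against 8.45% of all tested genes), all 6 GTPases, Isg15, Stat2, Zbp1, Ifi35, Ly6e and Ddx60. In WT mice 21 members were highest in library 2 in all 3 populations (52.5%, against 8.3% of genes). Both counts were made after the values were seen. In TPM they were 9 and 19 members (22.5% and 47.5%), against 5.03% and 4.07% of genes.

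Zbp1 shows the pattern at single-gene level. It had 49.2, 22.3 and 21.1 CPM in KO CD4+ libraries 1 to 3, against 30.2, 37.1 and 28.4 CPM in WT CD4+ libraries. It had 35.1, 15.3 and 15.5 CPM in KO CD8+ libraries, against 13.2, 25.5 and 10.4 CPM in WT CD8+ libraries. Irf1, an interferon-induced transcription factor, had 144, 66.8 and 60.4 CPM in KO CD4+ libraries, against 103, 126 and 108 CPM in WT CD4+ libraries. Cxcl9, an interferon-gamma target, had 187, 35.7 and 53.9 CPM in KO CD4+ libraries, against 26.2, 44.1 and 29.5 CPM in WT CD4+ libraries.

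Ifng, the interferon-gamma gene and a product of NK and T cells, had 12.6, 0.614 and 1.53 CPM in KO CD4- libraries, against 12.4, 5.34 and 5.18 CPM in WT CD4- libraries, and at most 2.55 CPM in any other library. Within KO CD4- its highest library was number 1, and within WT CD4- also number 1, where the GTPases were not highest. The labels do not say whether a number marks the same mouse across populations, and the source of the pattern was not tested. Without the KO libraries numbered 1 and the WT libraries numbered 2, a setting chosen after these values were seen, 20 members were called in CD4+, 11 in CD4- and 13 in CD8+ cells. Shares of all genes called in that setting are not given here. In that setting Igtp fell in CD4+ (-0.51) and CD4- cells (-0.73), Gbp3 rose in CD4+ (0.83) and CD4- cells (0.45) and fell in CD8+ cells (-1.19), and Gbp7 fell in CD4- cells (-1.19). The libraries left out are those where the summed GTPases were highest. That choice narrows the spread of these genes and shifts their means, so these GTPase differences are descriptions and their calls test nothing.

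**Figure D5:**
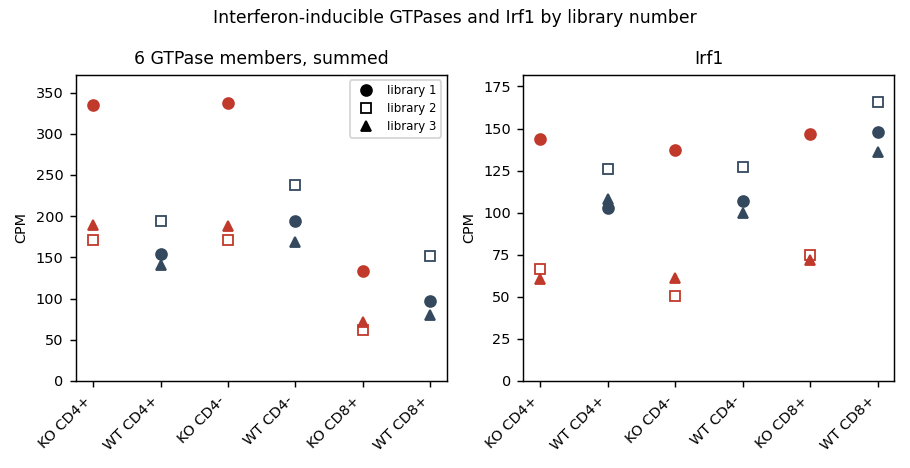
The panels give CPM of the 6 GTPase members summed and of Irf1 (not a member) in each library, with red for KO and dark for WT and a symbol for each library number. In every KO group library 1 is the highest, at 335, 337 and 134 CPM for the summed GTPases, and in every WT group library 2 is, at 194, 238 and 152 CPM.

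Of the 7 further members, Ifi27l2a and Ifi44 rose in all 3 populations. Ifi27l2a, a small mitochondrial protein induced by type I interferon, had 121, 110 and 113 CPM in KO CD4+ libraries, against 41.6, 62.3 and 46.3 CPM in WT CD4+ libraries (1.19 ± 0.18, adjusted p = 6.15e-05). It had 128, 119 and 108 CPM in KO CD4- libraries, against 49.3, 70.2 and 50 CPM in WT CD4- libraries (1.07 ± 0.18, adjusted p = 0.000329). It had 23.5, 31.2 and 23.4 CPM in KO CD8+ libraries, against 6.13, 11 and 9.22 CPM in WT CD8+ libraries (1.57 ± 0.21, adjusted p = 6.25e-05). The groups did not overlap in any population, and the 3 calls held in all 20 alternative settings.

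Ifi44 was low and rose most. It had 6.25, 6.6 and 5.8 CPM in KO CD4+ libraries, against 1.33, 3.4 and 2.47 CPM in WT CD4+ libraries (1.36 ± 0.36, adjusted p = 0.00667). It had 6.11, 12.3 and 5.06 CPM in KO CD4- libraries, against 2.42, 3.66 and 2.39 CPM in WT CD4- libraries (1.47 ± 0.36, adjusted p = 0.00554). It had 10.2, 19.9 and 11.8 CPM in KO CD8+ libraries, against 3.31, 4.01 and 3.25 CPM in WT CD8+ libraries (1.99 ± 0.35, adjusted p = 0.000727). KO library 2 stood above its neighbours in CD4- and CD8+ cells, and no KO library overlapped a WT library.

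Xaf1, a promoter of apoptosis, rose in CD8+ cells to 6.52, 8.23 and 6.63 CPM in KO libraries, against 3.79, 3.65 and 4.76 CPM in WT libraries (0.81, adjusted p = 0.00278). On the log2(TPM + 1) scale that difference was 0.25 (adjusted p = 0.392). In CD4+ cells Rtp4 fell by 0.58, Ly6e by 0.46 and Ifi35 by 0.36 on the log2 scale (adjusted p = 0.0437, 0.0131 and 0.0335). The Rtp4 call was lost without any 1 of the 6 libraries (adjusted p of 0.0517 to 0.156), the Ly6e call without WT library 2, KO library 2 or KO library 3 (adjusted p of 0.0622 to 0.103), and the Ifi35 call without WT library 1, WT library 2, KO library 2 or KO library 3 (adjusted p of 0.0536 to 0.171). Ly6e had 542, 397 and 403 CPM in KO CD4+ libraries, against 527, 765 and 561 CPM in WT CD4+ libraries, which overlap. Trim30a was not called.

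The differences between populations were tested directly. The KO effect in CD4+ minus that in CD8+ cells was called for 13 members, 3 higher and 10 lower, where 12.6% of all genes were called higher and 9.54% lower. The lower ones were Isg20 (-1.86), Ifit3 (-1.4), Isg15 (-1.23), Cmpk2 (-1.08), Xaf1 (-1.06), Ifit2 (-1.04), Dhx58 (-0.84), Ly6e (-0.61), Herc6 (-0.52) and Sp100 (-0.52), and the higher ones Gbp2 (2.4), Gbp3 (1.75) and Bst2 (1.07). The KO effect in CD4- minus that in CD8+ cells was called for 6 members, Bst2 higher (1.14) and Isg20 (-1.18), Cmpk2 (-1.12), Ifit2 (-0.8), Xaf1 (-0.78) and Sp100 (-0.52) lower, where 8.24% and 4.92% of genes were called. These comparisons share the CD8+ libraries. The calls of Isg20, Dhx58 and Bst2 in the CD4+ comparison held in all 27 alternative settings, and of the 6 in the CD4- comparison 0 did. The Herc6 difference (adjusted p = 0.0498) lost its call in 21 of the 27, the Ifit3 difference in 13 (-0.86, adjusted p = 0.193 without KO CD8+ library 2; -0.49, adjusted p = 0.557 without the libraries numbered 2) and the Ly6e difference in 11. With near-identical copies summed, the Gbp2 difference was 1.98 and not called (adjusted p = 0.0836).

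The KO effect in CD4+ minus that in CD4- cells was called for 0 of the 40 members by edgeR, where 2.48% of all genes were called higher and 1.28% lower. At an unadjusted p under 0.05 there were 5 members with edgeR and 5 with DESeq2, which also called 0, and limma on log2(TPM + 1) called 0 with 2 at that unadjusted level. Without WT CD4- library 2, 1 member was called, Dhx58 (-0.57, adjusted p = 0.0373). With the replicate block within genotype, 14 members were at that unadjusted level and 4 were called, Ifi35 (-0.44, adjusted p = 0.0164), Gbp2 (0.58, adjusted p = 0.028), Dhx58 (-0.47, adjusted p = 0.0306) and Gbp7 (1.38, adjusted p = 0.0479). The median difference of the members was -0.24 (log2), and that of all genes -0.02.

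Among members with a promoter entry, an ISRE core was found for 3 of the 5 that rose and 5 of the 8 that fell in KO CD4+ cells, and for 10 of the 17 not called there. It was found for 2 of the 7 that rose in KO CD8+ cells and 15 of the 22 not called there, and for 11 of the 17 that were higher in WT CD4+ than in WT CD8+ cells. Isg20, Cmpk2, Ifi44, Xaf1 and Sp100 held none in their windows.

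The other lists of the pathway held calls in both directions, to be read beside the shares of all genes that rose and fell (18.5% and 16.6% in CD4+, 14.6% and 11.3% in CD4-, 7.01% and 8.68% in CD8+ cells). Of the 10 interferon genes listed, 3 were found among the genes of the tables. Of these only Ifng had enough counts to be tested, and it was not called for KO minus WT in any population. Of the 11 receptors and JAK-STAT components, 1 rose and 1 fell in CD4+, 3 rose and 2 fell in CD4-, and 4 rose and 0 fell in CD8+ cells. Ifnar1, the receptor chain for type I interferon, rose in all 3 by 0.76, 0.6 and 0.28 (log2; adjusted p = 4.48e-07, 1.54e-05 and 0.0135). Irf9 rose in CD8+ cells (0.35, adjusted p = 0.018), and Jak2 fell in CD4+ (-0.34) and CD4- cells (-0.4). Ifnar2 and Ifngr1 were not called.

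Of the 10 sensors and adaptors tested, 2 rose and 3 fell in CD4+, 4 rose and 2 fell in CD4-, and 2 rose and 1 fell in CD8+ cells. Tlr7, the endosomal receptor for single-stranded RNA, fell in all 3 populations (-1.98, -1.36 and -0.95). It had 27, 26.9 and 35.4 CPM in KO CD4+ libraries, against 120, 113 and 118 CPM in WT CD4+ libraries. Ticam1, the adaptor of TLR3, rose in CD4+ (0.73) and CD4- cells (0.74), and Tlr3 rose in CD4- (1.03) and CD8+ cells (0.87). Of the 5 further IRF factors, 2 rose and 1 fell in CD4+, 1 rose in CD4- and 1 rose in CD8+ cells. Irf8 was among those that rose, by 0.65 in CD4+ and 0.55 in CD4- cells. Of the 7 brakes on the pathway, 1 rose and 1 fell in CD4+, and 1 fell in CD8+ cells. In CD4- cells edgeR's quasi-likelihood test called 0 of them, and Socs1 was the 1 with an unadjusted p under 0.05 (-1.39, adjusted p = 0.0808). Socs3, which inhibits cytokine receptors, rose in CD4+ cells by 1.66, to 64.9, 53.4 and 43 CPM in KO libraries, against 17.6, 19.9 and 13.4 CPM in WT libraries.

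A second list of interferon-stimulated genes, 40 of whose 41 genes were tested, also held genes called in both directions: 7 rose and 9 fell in CD4+, 9 rose and 5 fell in CD4-, and 5 rose and 2 fell in CD8+ cells, with medians of 0.02, 0.04 and -0.02 (log2). Of all tested genes 18.5% rose and 16.6% fell in CD4+, 14.6% and 11.3% in CD4-, and 7.01% and 8.68% in CD8+ cells. Ifit1bl1 fell in CD4+ (-2.22) and CD4- cells (-1.53), while Ifitm2, which blocks viral entry, rose there (1.39 and 1.16). Lgals3bp rose in all 3 populations (1.17, 0.65 and 0.59), and Epsti1 fell in all 3 (-0.73, -0.42 and -0.68).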

How the data were processed

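Per the submitters' processing notes, reads were quality-checked with FastQC 0.11.8 and quantified with Salmon 0.14.1 against GRCm38. The authors deposited estimated counts per transcript for 117135 transcripts and TPM for 84086 of them. Whether the counting used strand is not given in the sources used here.

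Transcripts were summed to 24614 genes. For 152 transcripts the table named no gene. GENCODE M21 supplied it for 37, and the other 115, with 0.16% of the counts or less in any library, were dropped. Gene sums of the estimated counts were rounded, filtered with edgeR's filterByExpr (13381 genes left), TMM-normalised and tested with the quasi-likelihood F test of edgeR 4.0.16 in R 4.3.3, with 6 group means, 12 residual degrees of freedom and Benjamini-Hochberg adjustment over all genes (threshold 0.05). DESeq2 1.42.0 and limma 3.58.1 on log2(TPM + 1) and log2(TPM + 0.1) were alternatives. The value added before the log (1 or 0.1) shrinks the log2 differences of low genes. Differences of higher genes could be smaller on these scales too, such as that of Sp100 in CD8+ cells. In a test on simulated data for KO minus WT in CD4+ cells (13076 genes), 74.5% of genes changed by 1 (log2) and 83.7% of those changed by 2 were recovered.

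The 40 members and the other lists were chosen with earlier results of these data known. Any member could be named, up to 8 per direction and comparison by size, and 12 members were always given by library where they were tested. Replicate numbers did not meet the rule for pairs: deviations of same-numbered libraries correlated at -0.05 to 0.15 between genotypes and at 0.05 to 0.2 between WT populations, and not every pair was over 0.1. Values of 1 gene of the pathway lists are not reported here.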

Additional observations from a re-analysis of the deposited data

Results flagged for a closer look

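The KO effect differed between populations for 13 members in CD4+ against CD8+ cells and for 6 in CD4- against CD8+ cells, by the test of the difference itself. As shares of the 40 members these were 7.5% higher and 25% lower, and 2.5% higher and 12.5% lower. Of all tested genes 12.6% were called higher and 9.54% lower in the first comparison, and 8.24% and 4.92% in the second. Values are log2 differences of the KO effects. Isg20, the RNA exonuclease, had -1.86 and -1.18, Cmpk2 -1.08 and -1.12, Ifit2 -1.04 and -0.8, Xaf1 -1.06 and -0.78, Sp100 -0.52 and -0.52, and Bst2 1.07 and 1.14, each for CD4+ minus CD8+ and then CD4- minus CD8+. Also called in the first comparison were Ifit3 at -1.4, Isg15 -1.23, Dhx58 -0.84, Ly6e -0.61, Herc6 -0.52, Gbp2 2.4 and Gbp3 1.75. Both comparisons use the same CD8+ libraries, and the direct test of CD4+ against CD4- called 0 of 40 members.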

How the results depend on the processing

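In KO minus WT, CD4+ cells gave 19 calls, and 12 on log2(TPM + 0.1) and 9 with the transcript length offset. CD8+ cells gave 10, and 4 on log2(TPM + 1), 5 on log2(TPM + 0.1) and 6 with the offset. The 13 calls of CD4+ against CD8+ became 7, 6 and 8 in these settings, the 6 of CD4- against CD8+ became 3, 3 and 3, and the 7 of WT CD4+ against WT CD4- became 4, 3 and 4. Fewer of all genes were called as well. With the offset their count went from 4692 to 3096 (KO CD4+), 2099 to 1397 (KO CD8+) and 1761 to 903 (CD4- against CD8+). With libraries left out it was 3126 to 4347 (KO CD4+) and 1147 to 2060 (KO CD8+). The replicate block gave 20, 10 and 14 calls in KO CD4+, CD4- and CD8+ cells. The libraries share only a number, and they correlated best with their own number for 2, 1 and 0 of 3 pairs between genotypes and for 3 of 3 in each comparison of WT populations. The replicate block within genotype, added after the data were seen, gave 21, 11 and 4 for the differences of KO effects and 15 for WT CD4+ against WT CD4-. With libraries left out the counts were 9 to 20 (KO CD4+), 5 to 11 (KO CD4-), 6 to 13 (KO CD8+), 8 to 16 (CD4+ against CD8+), 2 to 8 (CD4- against CD8+), 0 to 1 (CD4+ against CD4-) and 1 to 8 (WT CD4+ against WT CD4-). The upper ends of 20, 11, 13 and 16 came from leaving out the KO libraries numbered 1 and the WT libraries numbered 2. That setting was chosen after the values were seen, so these upper ends test nothing. Directions reversed in CD4- cells for Cmpk2 (-0.16 and -0.19 on the TPM scales), Ddx58 (0.09 with the offset) and Stat2 (-0.36 without the libraries numbered 1, 0.23 without those numbered 2). The cause was not tested. The wild-type calls against CD8+ cells stayed at 26 to 35 and 26 to 33.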
